A study of Mus musculus with 12 samples.

Results

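The genes described here encode the AP-1 transcription factors and their close relatives: the Jun proteins (*Jun*, *Junb*, *Jund*), the Fos proteins (*Fos*, *Fosb*, *Fosl1*, *Fosl2*), *Atf3*, and the small Maf proteins *Maff* and *Mafg*. They were taken by gene symbol, 10 of the 45777 genes in the table, with earlier results of these data known; no measured value enters the rule. Liver RNA was sequenced from 12 male C57BL/6 mice, 3 in each of 4 groups. The groups combined a genotype label, WT or Gα12KO (germline loss of *Gna12*, which encodes a heterotrimeric G protein alpha subunit; WT mice were age-matched littermates), with a treatment, vehicle or acetaminophen (APAP). All mice were fasted overnight, were 10 to 12 weeks old by the labels, and their livers were taken 6 h after one intraperitoneal injection, of 300 mg/kg in the APAP groups. The comparisons asked how these factors respond to an overdose of APAP, which hepatocytes convert to a reactive product that depletes glutathione, and whether the response differs between the genotype labels.

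AP-1 is a dimer of basic leucine zipper proteins. Jun proteins pair with each other, with Fos proteins or with ATF family members, whereas Fos proteins need a partner, and the pair formed decides which DNA site is bound. Kinases of the MAPK families, JNK among them, act on Jun proteins and on the factors that transcribe *Fos*, so that several of these genes are switched on within minutes of growth signals or stress without new protein synthesis. *Atf3* is induced by many stresses, including the integrated stress response through ATF4. Small Maf proteins lack a transactivation domain and act with CNC partners such as NRF2 or BACH1 at antioxidant genes. In the liver, JNK and Jun are well known for their part in APAP injury and in regeneration.

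The genotype label was checked first by *Gna12* itself. With vehicle, the WT livers 1, 2 and 3 held 3550, 1659 and 3172 *Gna12* counts, and the livers labelled KO held 4003, 3422 and 2472. After APAP, the WT livers held 1193, 4373 and 3178 counts, and the livers labelled KO held 2489, 3023 and 3248. *Gna12* was not lower under the KO label with either treatment, so "labelled KO" is used throughout. Whether the deleted part of *Gna12* lies within the counted reads is not given in the sources used here. The study itself reports tail DNA PCR and liver *Gna12* qRT-PCR for its WT and KO mice, and immunoblots of the protein. It does not state whether the sequenced livers were among those tested. Total counts per library ranged from 49737950 to 69566079. Among the WT libraries, vehicle liver 2 and APAP liver 1 stood apart: the former had a summed neutrophil marker level of 19.7 CPM (counts scaled to library size) against 1.20 to 2.47 in the other 5 vehicle livers, and the latter had 238212 counts of the hemoglobin gene *Hba-a1* against 2551 to 7713 in the other 11 livers. Hepatocyte markers summed to between 73312 and 145966 CPM in every liver, as the tissue label says.

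Promoter sequence is shown for 4 of the genes, *Jun*, *Fos*, *Atf3* and *Maff*, picked with their motif matches known. These 4 genes rose under both labels, and their upstream regions differ in which AP-1-type and stress-type letters they hold. *Fosb* and *Fosl1* also rose under both labels and are not shown. RefSeq windows (GRCm38.p6) were found for 9 of the 10 genes, in 11 windows, *Maff* having several, and *Fosl1* was not matched. The 250 bases before the annotated start are printed 5′ to 3′ on the strand of the gene. Capitals mark the motif copies that a search of both strands found: TGACATCA in *Jun*, a variant AP-1 site known from this promoter; TGACG in *Fos*, the core of the cAMP response element (CRE), and its TATAAA box; TTGCATCA in *Atf3*, a C/EBP-ATF composite of the kind ATF4 binds, and CGTCA, the same CRE core on the other strand; and TGACGTCA in *Maff*, the full CRE, which contains the core on both strands. The windows lie at chr4:95052223-95052472 (minus strand) for *Jun*, chr12:85473640-85473889 (plus strand) for *Fos*, chr1:191183334-191183583 (minus strand) for *Atf3* and chr15:79347270-79347519 (plus strand) for *Maff*.
Jun: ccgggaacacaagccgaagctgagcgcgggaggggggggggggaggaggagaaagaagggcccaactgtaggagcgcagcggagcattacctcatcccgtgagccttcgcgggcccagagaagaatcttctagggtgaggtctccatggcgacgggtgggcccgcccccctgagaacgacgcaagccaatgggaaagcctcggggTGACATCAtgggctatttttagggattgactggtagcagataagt
Fos: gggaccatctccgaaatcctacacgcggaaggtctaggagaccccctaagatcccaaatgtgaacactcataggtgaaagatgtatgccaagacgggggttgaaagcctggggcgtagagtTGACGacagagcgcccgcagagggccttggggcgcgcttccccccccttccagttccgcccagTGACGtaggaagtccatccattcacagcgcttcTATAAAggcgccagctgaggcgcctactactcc
Atf3: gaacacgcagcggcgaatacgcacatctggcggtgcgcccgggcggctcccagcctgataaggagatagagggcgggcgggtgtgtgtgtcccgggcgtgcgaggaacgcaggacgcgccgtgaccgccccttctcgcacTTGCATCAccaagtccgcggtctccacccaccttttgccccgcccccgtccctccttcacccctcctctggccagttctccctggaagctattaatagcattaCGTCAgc
Maff: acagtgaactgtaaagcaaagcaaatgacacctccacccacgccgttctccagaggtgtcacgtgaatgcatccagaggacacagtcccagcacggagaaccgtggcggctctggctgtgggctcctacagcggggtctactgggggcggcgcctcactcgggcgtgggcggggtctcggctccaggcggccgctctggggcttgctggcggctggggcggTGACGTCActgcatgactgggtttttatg

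Few of the windows held a full site. The classic AP-1 site TGANTCA was in 0 of the 11 windows, against 6.75% of all 32851 promoter windows of the same length. TGACATCA was found in *Jun*, 45 to 38 bases before the start, and in 1 further *Maff* window, against 2.93% of all windows. The full CRE was found in *Maff* alone, 29 to 22 bases before the start, against 1.55%. Its core TGACG stood in 7 of the 11 windows, those of 6 genes (*Atf3*, *Fos*, *Fosb*, *Junb*, *Maff* and *Mafg*), against 17.8% of all windows. TTGCATCA was found in *Atf3* alone, 110 to 103 bases before the start, against 0.791%, TATAAA in *Fos* alone, 33 to 28 bases before the start, against 12.4%, and the CArG box bound by SRF in 0 of the 11 against 1.47%. These are matches of letters and no binding was measured. Sites more than 250 bases before the start were not searched, so a window without a motif does not show that its gene lacks the site.

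After APAP, 9 of the 10 genes rose over both genotype labels and *Mafg* fell. Background rates of calls in that comparison were 14.0% higher and 11.4% lower of 16509 genes (edgeR's quasi-likelihood test, adjusted p under 0.05). The median log2 fold change of the 10 genes was 5.26, or 4.88 with *Fosl1* at its bound, against 0.01 over all genes tested. All 10 had an unadjusted p under 0.05, against 37.1% of genes. The 6 APAP livers lay wholly above the 6 vehicle livers for 8 genes, against 7.11% of genes, and wholly below them for 0, against 5.37%, *Junb* and *Mafg* being the genes that overlapped. In WT livers alone 6 genes rose and 0 fell, against a background of 1.62% and 0.427%, and 8 of the 10 had APAP livers that all lay above all vehicle livers, against 12.9% of genes. Of the 10, 0 fell at an unadjusted p under 0.05 in WT livers, and DESeq2 and limma also called 0 lower. In livers labelled KO 9 rose and 0 fell, against 13% and 9.6%, 9 lay wholly above vehicle, against 21.8%, and *Mafg* wholly below it, against 21.1%. All 10 had an unadjusted p under 0.05 there, against 37.1% of genes, *Mafg* at 0.02, and DESeq2 called *Mafg* lower. The number of WT calls depended on single livers. Without WT vehicle liver 3 it was 2 (*Fosb* and *Atf3*), and calls over all genes fell from 255 higher of 15693 to 41 of 16338. Without WT vehicle liver 2 it was 8, against 181 of 16387 genes called higher. The genes gained there were *Junb*, *Jund* and *Fosl2*, and the gene lost was *Fosl1*. Since these are whole livers, a change in the number of cells of a type and a change in RNA per cell cannot be told apart. In the plot of levels by liver, the steps of *Atf3*, *Jun* and *Fos* stand out from the shallow change of *Mafg*.

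**Figure D1:**
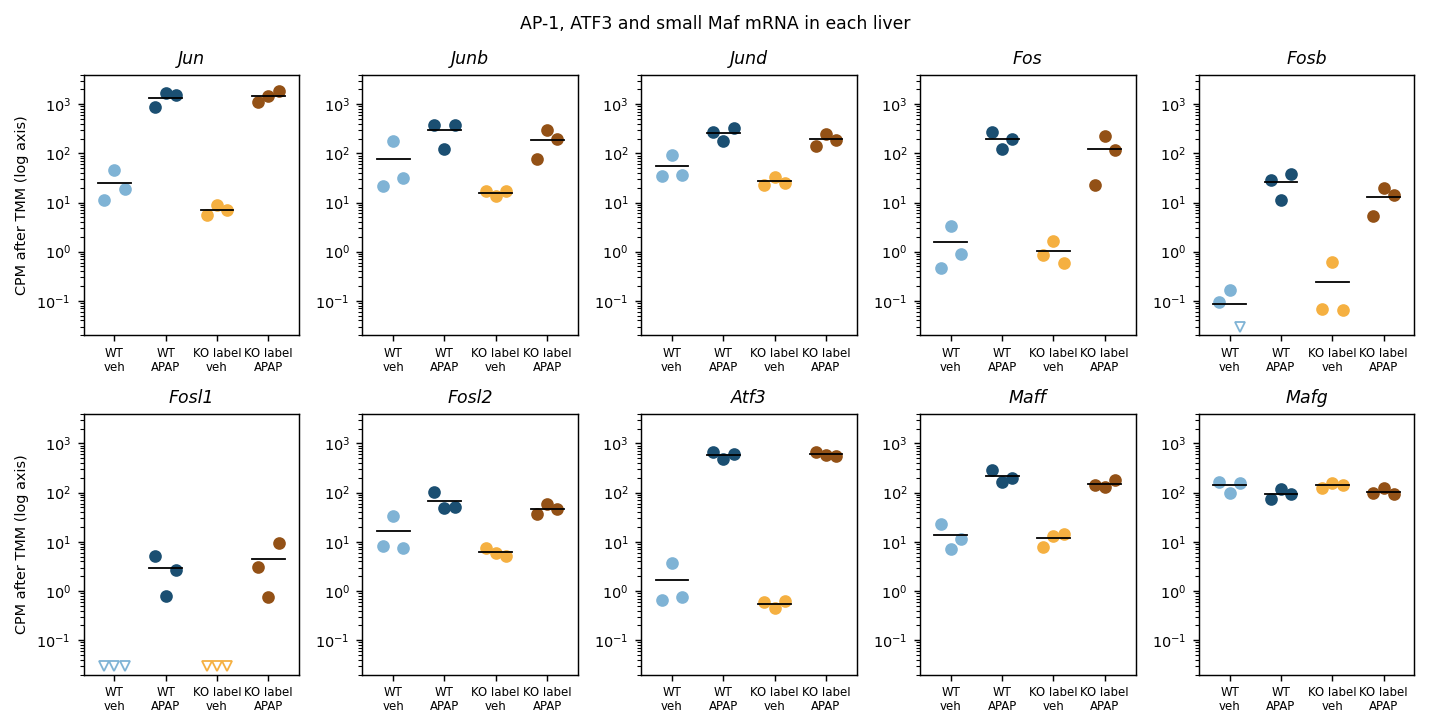
CPM of each gene in the 12 livers on a log axis, after TMM scaling, in the 4 groups of 3 livers. Filled points are single livers, open triangles at the foot of a panel are livers with 0 counts, and black bars are arithmetic group means. *Atf3* lies between 0.448 and 3.63 CPM in the vehicle livers and between 494 and 671 CPM after APAP.

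**Figure D2:**
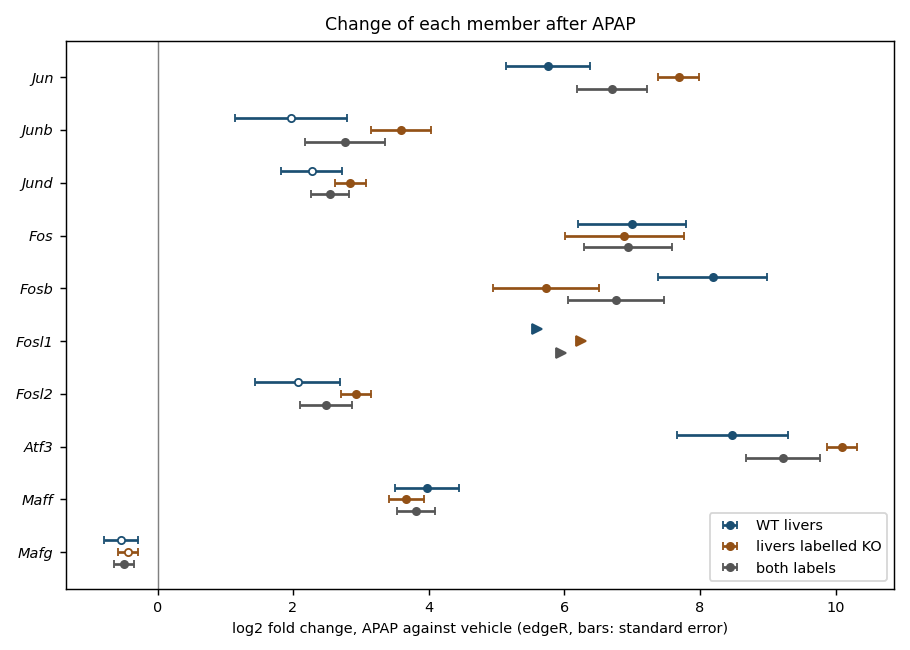
Log2 fold change after APAP for each gene in WT livers, in livers labelled KO and over both labels, with bars for the standard error. Filled points passed an adjusted p of 0.05, open points did not, and the *Fosl1* triangles mark lower bounds, with no standard error. With *Fosl1* set aside, *Atf3* has the largest fitted change over both labels, 9.22, and *Mafg* alone lies below 0.

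*Jun* encodes c-Jun, the JNK substrate that gives AP-1 its strongest transactivation domain. It lies at chr4:95049036-95052222 on the minus strand in a single exon. In WT livers 1, 2 and 3 it stood at 11, 45.6 and 18.6 CPM with vehicle and at 872, 1652 and 1520 CPM after APAP. In livers labelled KO it stood at 5.51, 8.82 and 7.18 CPM with vehicle and at 1127, 1464 and 1818 CPM after APAP. Every APAP liver was far above every vehicle liver, of which WT liver 2 was the highest. The log2 fold change was 5.76 ± 0.62 (SE; edgeR adjusted p = 0.0082) in WT livers, 7.69 ± 0.30 (adjusted p = 1.21e-05) in livers labelled KO and 6.71 ± 0.52 (adjusted p = 3.69e-06) over both. The WT call was lost without vehicle liver 3 (5.56, adjusted p = 0.0573).

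*Junb* encodes a Jun protein that is a weaker activator and restrains c-Jun at some sites. It lies at chr8:84976909-84978748 on the minus strand, also in a single exon. With vehicle it stood at 21.6, 176 and 30.9 CPM in WT livers and at 17.3, 13.7 and 16.8 CPM in livers labelled KO. After APAP it stood at 377, 125 and 381 CPM in WT livers and at 76.6, 297 and 198 CPM in livers labelled KO. WT vehicle liver 2 lay above WT APAP liver 2 and above APAP liver 1 labelled KO, so the treatments overlapped in WT livers but not under the KO label. *Junb* rose by 3.59 ± 0.44 on the log2 scale in livers labelled KO (SE; edgeR adjusted p = 0.00183) and by 2.76 ± 0.59 over both (adjusted p = 0.00437). In WT livers the difference was 1.96 ± 0.82 (adjusted p = 0.266), and without vehicle liver 2 it was 3.49 ± 0.56 (adjusted p = 0.0436).

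*Jund* encodes the Jun protein that most resting cells hold at a steady level. It lies at chr8:70697739-70700616 on the plus strand in a single exon. With vehicle it stood at 34.7, 94.3 and 35.9 CPM in WT livers and at 22.9, 33.2 and 24.9 CPM in livers labelled KO. APAP livers held 278, 180 and 335 CPM under the WT label and 144, 244 and 188 CPM under the KO label. All 6 APAP livers were above all 6 vehicle livers. The log2 fold change was 2.84 ± 0.23 in livers labelled KO (SE; edgeR adjusted p = 0.0003), 2.55 ± 0.28 over both (adjusted p = 6.62e-05) and 2.28 ± 0.45 in WT livers (adjusted p = 0.0512). The WT value did not pass, and passed without vehicle liver 2 (2.91, adjusted p = 0.0202) or APAP liver 2 (2.47, adjusted p = 0.0480).

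*Fos* encodes c-Fos, the immediate early partner of Jun proteins. It lies at chr12:85473890-85477274 on the plus strand with 4 exons. With vehicle it stood at 0.470, 3.31 and 0.898 CPM in WT livers and at 0.840, 1.62 and 0.597 CPM in livers labelled KO. After APAP it stood at 268, 125 and 198 CPM in WT livers and at 22.3, 221 and 117 CPM in livers labelled KO. Treatments did not overlap, but APAP liver 1 labelled KO was well below the other 5. *Fos* rose by 7.00 ± 0.80 on the log2 scale in WT livers (SE; edgeR adjusted p = 0.00933), by 6.88 ± 0.88 in livers labelled KO (adjusted p = 0.00206) and by 6.93 ± 0.65 over both (adjusted p = 1.7e-05). Without WT vehicle liver 3 the WT value was 6.70 (adjusted p = 0.0596), and without WT vehicle liver 2 it was 8.17.

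*Fosb* and *Fosl1* were close to absent before treatment. *Fosb*, whose product resembles c-Fos and whose shorter splice form lacks the transactivating end, had 5, 8 and 0 counts in the WT vehicle livers and 4, 31 and 3 in those labelled KO. After APAP it stood at 28.1, 11 and 37.8 CPM in WT livers and at 5.30, 19.5 and 14.2 CPM in livers labelled KO. APAP liver 1 labelled KO was again the lowest of the 6. *Fosb* rose by 8.19 ± 0.81 on the log2 scale in WT livers (SE; edgeR adjusted p = 0.00659), by 5.73 ± 0.78 in livers labelled KO (adjusted p = 0.00271) and by 6.77 ± 0.71 over both (adjusted p = 4.3e-05). These fits rest on few vehicle counts.

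*Fosl1*, which encodes FRA-1, a Fos protein without a strong activation domain, had 0 counts in all 6 vehicle livers. APAP livers held 263, 60 and 167 counts under the WT label and 178, 47 and 664 under the KO label. Liver 2 was the lowest of its group under each label. Against a floor of 3 counts in each vehicle library, *Fosl1* was at least 48.4-fold higher in WT livers (edgeR adjusted p = 0.0345), at least 76.0-fold higher in livers labelled KO (adjusted p = 0.00955) and at least 62.1-fold higher over both (adjusted p = 0.00114). The WT call was lost in 5 of the 6 fits that each left out 1 WT liver, with adjusted p up to 0.138, and remained without APAP liver 2. *Fosl1* overlaps *Ccdc85b*, and whether counting used strand is not given in the sources used here, so reads in the overlap cannot be told apart.

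*Fosl2* encodes FRA-2, which follows c-Fos more slowly in many cells. With vehicle it stood at 8.04, 33.5 and 7.43 CPM in WT livers and at 7.47, 6.00 and 5.26 CPM in livers labelled KO. After APAP it stood at 102, 49.7 and 51.3 CPM in WT livers and at 36.2, 59.7 and 46.1 CPM in livers labelled KO. Vehicle livers lay below APAP livers throughout, with WT vehicle liver 2 nearest to them. The log2 fold change was 2.93 ± 0.22 in livers labelled KO (SE; edgeR adjusted p = 0.000227), 2.48 ± 0.39 over both (adjusted p = 0.000632) and 2.07 ± 0.62 in WT livers (adjusted p = 0.139), where it became 3.13 ± 0.40 without vehicle liver 2 (adjusted p = 0.0264).

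*Atf3*, which encodes a stress-induced bZIP protein that represses as a homodimer and can pair with Jun proteins, had the largest fitted change of the 9 genes other than *Fosl1*, whose change is known only as a lower bound. It lies at chr1:191170296-191183333 on the minus strand with 4 exons. With vehicle it stood at 0.657, 3.63 and 0.739 CPM in WT livers and at 0.588, 0.448 and 0.619 CPM in livers labelled KO. After APAP it stood at 671, 494 and 605 CPM in WT livers and at 664, 571 and 566 CPM in livers labelled KO. By CPM the 6 APAP livers were close to each other, with a coefficient of variation of 11.2%, against 24.8% for *Jun* and 55.6% for *Fos*. On the deposited TPM scale they were further apart, at 338 to 661 with a mean of 507 and an SD of 106. *Atf3* rose by 8.48 ± 0.82 on the log2 scale in WT livers (SE; edgeR adjusted p = 0.00659), by 10.09 ± 0.22 in livers labelled KO (adjusted p = 4.22e-07) and by 9.22 ± 0.55 over both (adjusted p = 4.67e-07). It had the smallest p of all 15665 genes tested under the KO label, and the WT value became 9.72 ± 0.36 without vehicle liver 2.

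APAP liver 1 labelled KO ranked differently from gene to gene. By CPM it was the lowest of the 6 APAP livers for *Junb*, *Jund*, *Fos*, *Fosb* and *Fosl2*, yet its *Atf3* level of 664 CPM was second only to the 671 CPM of WT APAP liver 1. *Jun*, *Fosl1*, *Maff* and *Mafg* were not lowest there either, at 1127, 3.11, 143 and 99.5 CPM. By TPM, *Jund* was lowest in WT APAP liver 1 (96.0, against 98.6 in APAP liver 1 labelled KO). The *Atf3* level of APAP liver 1 labelled KO, 661 TPM, was the highest of the 6.

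*Maff* and *Mafg* encode small Maf proteins and moved in opposite directions. *Maff* stood at 22.8, 7.19 and 11.3 CPM in WT vehicle livers and at 7.88, 13.3 and 14.5 CPM in those labelled KO, against 283, 164 and 197 CPM and 143, 128 and 180 CPM after APAP. Every APAP liver was above every vehicle liver, and the highest vehicle liver was WT liver 1, not liver 2. *Maff* rose by 3.98 ± 0.47 on the log2 scale in WT livers (SE; edgeR adjusted p = 0.0106), by 3.67 ± 0.26 in livers labelled KO (adjusted p = 0.000166) and by 3.81 ± 0.29 over both (adjusted p = 3.29e-06). The WT call was lost without vehicle liver 3 (3.83, adjusted p = 0.0661).

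*Mafg* stood at 162, 100.2 and 158 CPM in WT vehicle livers and at 126, 158 and 144 CPM in those labelled KO. After APAP it stood at 75.6, 117 and 94.6 CPM in WT livers and at 99.5, 123 and 92.5 CPM in livers labelled KO. WT vehicle liver 2 lay within the APAP range, and under the KO label the treatments did not overlap. *Mafg* fell by 0.49 on the log2 scale over both labels (SE 0.15, edgeR adjusted p = 0.0271), and the values were -0.54 ± 0.25 in WT livers (adjusted p = 0.319) and -0.43 ± 0.15 in livers labelled KO (adjusted p = 0.0722). The call over both labels was lost without WT vehicle liver 1 (adjusted p = 0.0680), WT vehicle liver 3 (0.0661), WT APAP liver 3 (0.0583), vehicle liver 2 labelled KO (0.0646), APAP liver 1 labelled KO (0.0557) or APAP liver 3 labelled KO (0.0664). Reads shared with the overlapping *Gm17586* cannot be told apart.

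Levels of different genes were compared per length, on the deposited TPM scale, which divides by transcript length. In the 6 vehicle livers the order of mean TPM was *Junb* (38.0 ± 49.9, SD), *Mafg* (30.9 ± 7.00), *Jund* (22.3 ± 12.9), *Maff* (9.99 ± 4.78), *Jun* (7.79 ± 6.74), *Fosl2* (3.00 ± 2.65), *Fos* (0.954 ± 0.733), *Atf3* (0.855 ± 0.890), *Fosb* (0.068 ± 0.102) and *Fosl1*, which had none. The first place of *Junb* rested on WT vehicle liver 2, which held 139 TPM: in each of the other 5 vehicle livers *Mafg* was above *Junb*, and the medians of the 6 livers were 19.4 TPM for *Junb* and 32.9 TPM for *Mafg*. The ranges of neighbours in that order overlapped, except that the highest *Fosb* value of 0.272 TPM lay below the lowest *Atf3* value of 0.367 TPM. After APAP the order of mean TPM was *Jun* (774 ± 281), *Atf3* (507 ± 106), *Junb* (209 ± 97.7), *Maff* (143 ± 17.6), *Jund* (130 ± 36.6), *Fos* (118 ± 57.5), *Mafg* (24.1 ± 7.50), *Fosl2* (15.5 ± 2.3), *Fosb* (8.28 ± 4.71) and *Fosl1* (3.56 ± 3.58), with every pair of neighbours overlapping. WT APAP liver 1 held the most *Atf3* of the 6 APAP livers by CPM and the least by TPM (338), so a rank within the APAP livers depends on the scale.

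The make-up of the Jun and Fos mRNA pools changed with treatment. *Jun* made up 9.05% to 16.6% of the summed Jun family TPM in the vehicle livers and 47.6% to 79.9% after APAP, with no overlap. *Junb* was 34.3% to 67.0% of that pool with vehicle and 9.35% to 35.6% after APAP, ranges that overlapped. The summed Jun family level ranged from 26.7 to 208 TPM with vehicle, the top value being WT liver 2, and from 572 to 1407 TPM after APAP.

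In the Fos pool the leading mRNA switched from *Fosl2* to *Fos*. *Fosl2* was 52.4% to 85% of the summed Fos family TPM in the vehicle livers and 7.65% to 30.8% after APAP. *Fos* was 13.7% to 39.2% with vehicle and 52.9% to 86.8% after APAP, so neither gene's shares overlapped between treatments. In WT APAP livers *Fos* held 81.9%, 83.2% and 82.1%, and in those labelled KO it held 52.9%, 86.8% and 76.3%. APAP liver 1 labelled KO had the smallest Fos pool after APAP, 39.4 TPM against 133 to 221 TPM in the other 5, and the largest *Fosl1* share, 9.09%. The stacked bars of family shares show the same switch in each of the 12 livers. These shares are of mRNA and say nothing of protein.

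**Figure D3:**
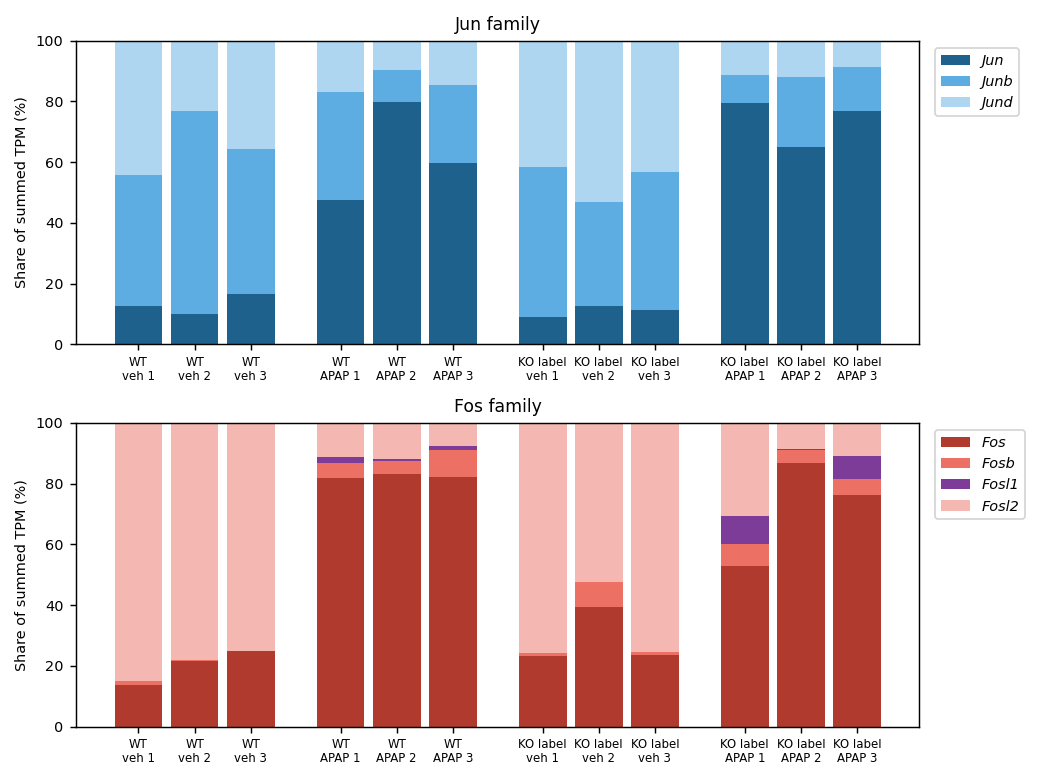
Share of each gene in the summed TPM of the Jun family (top) and the Fos family (bottom), in percent, 1 bar per liver, livers 1 to 3 of each group from left to right. *Jun* takes 47.6% or more of its family in every APAP liver and at most 16.6% in every vehicle liver, and *Fos* replaces *Fosl2* as the largest part of the Fos family.

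With vehicle, the AP-1 genes tended to lie higher in WT livers than in livers labelled KO, and none of the differences passed the adjusted test. Of the 8 genes tested (*Fosb* and *Fosl1* were too low), 0 were called in either direction by edgeR, against 0.0131% of 15262 genes each way, and 5 had an unadjusted p under 0.05, against 7.56% of all genes. limma called 0, and DESeq2 called *Jun* higher in WT (adjusted p = 0.00822). The WT livers lay wholly above those labelled KO for *Jun*, *Junb*, *Jund* and *Atf3*, 4 genes against a background of 6.53%, and wholly below them for 0, against 7.46%. Log2 differences, WT over KO label, were 1.81 ± 0.48 for *Jun* (SE; edgeR adjusted p = 0.512), 2.25 ± 0.74 for *Junb* (adjusted p = 0.588), 1.03 ± 0.39 for *Jund* (adjusted p = 0.623) and 1.60 ± 0.67 for *Atf3* (adjusted p = 0.654).

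One liver carried much of that difference. WT vehicle liver 2 was the highest of the 6 vehicle livers for 6 genes, at 4.45 times the mean CPM of the other 5 for *Jun*, 8.76 times for *Junb*, 3.11 times for *Jund*, 3.75 times for *Fos*, 4.89 times for *Fosl2* and 5.94 times for *Atf3*. It was the lowest for *Maff* and *Mafg*, at 0.515 and 0.671 times that mean. Without it the WT over KO-label differences were 1.04 ± 0.27 for *Jun*, 0.71 ± 0.19 for *Junb*, 0.38 ± 0.17 for *Jund* and 0.33 ± 0.37 for *Atf3*, and *Fos* changed from 0.61 to -0.58. The part of its raised neutrophil markers in these levels was not tested.

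After APAP the tests did not tell the genotype labels apart at any of the 10 genes. edgeR called 0 higher and 0 lower, against 0.0124% and 0.0185% of 16174 genes, and DESeq2 and limma also called 0. Of the 10 genes, 0 had an unadjusted p under 0.05, against 3.31% of all genes, so these counts are near the background. By CPM the groups overlapped for all 10 genes, against 3.86% of genes wholly higher and 4.87% wholly lower in WT. By TPM they did not overlap for *Atf3*, which stood at 338, 467 and 502 TPM in WT livers and at 661, 529 and 542 TPM in livers labelled KO. That result thus depends on the scale. Log2 differences, WT over KO label, were -0.01 ± 0.20 for *Atf3* (SE; edgeR adjusted p = 0.997), -0.11 ± 0.29 for *Jun* (adjusted p = 0.974), 0.73 ± 0.67 for *Fos* (adjusted p = 0.958) and 0.53 ± 0.25 for *Maff* (adjusted p = 0.958, unadjusted 0.0669). The standard errors leave room for differences of the size seen at *Fosb*, 0.99 ± 0.54, and *Junb*, 0.64 ± 0.54.

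Whether the APAP change itself differed between labels was tested as an interaction over all 12 livers. edgeR called 0 of the 10 genes, as it called 0 of 16509 genes in all (0%), and DESeq2 and limma called 0 of the 10. *Jun* and *Atf3* had an unadjusted p under 0.05 (0.00923 and 0.0430), against 5.14% of all genes. The WT change minus that under the KO label was -1.93 ± 0.62 on the log2 scale for *Jun* (SE; adjusted p = 0.872) and -1.62 ± 0.71 for *Atf3* (adjusted p = 0.872). Without WT vehicle liver 2 these became -1.17 ± 0.44 and -0.36 ± 0.28, and 0 of the members were called. The vehicle comparison of labels and the interaction share that liver. In the plot of genotype labels, the vehicle values of the Jun genes, *Fosl2* and *Atf3* sit to the right of 0 and the APAP values nearer to it.

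**Figure D4:**
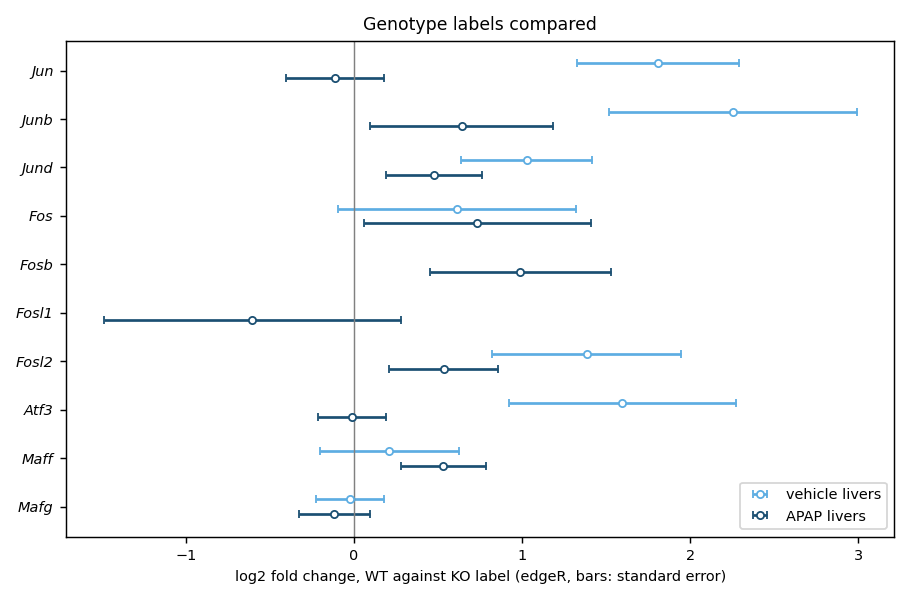
Log2 fold change of WT against the KO label, with bars for the standard error, in vehicle livers and in APAP livers. All points are open because no difference passed an adjusted p of 0.05. *Fosb* and *Fosl1* have no vehicle value because they were too low to test, and *Junb* has the largest vehicle value, 2.25.

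Members differed in which other genes resembled them. Likeness was the root-mean-square difference of log2 CPM over the 12 livers after centring each gene, so it follows the size of the APAP step as well as its shape. Outside the 10 genes, *Jun* was nearest to *Egr1* (0.65), the zinc finger immediate early gene, and so were *Fos* (1.08) and *Atf3* (1.31). *Jund* was nearest to *Trib1* (0.19), and *Junb* (0.50) and *Fosl2* (0.23) to *Plk3*, which encodes a stress-responsive kinase. *Maff* was nearest to *Ifrd1* (0.52), *Mafg* to *Noa1* (0.10), and *Fosb* (1.12) and *Fosl1* (0.58) to *Gm3776*. Among the members, *Jund* and *Fosl2* were the nearest pair (0.36), followed by *Junb* and *Fosl2* (0.55), while *Fos* and *Fosb* differed by 0.90. The next nearest genes, in order, were *Dusp8* and *Hmox1* for *Jun*, *H3f3b* and *Chac1* for *Junb*, *Plk3* and *Ppp1r15a* for *Jund*, *Hmox1* for *Fos*, and *Egr1* and *Dusp5* for *Fosb*. They were *Gsta1* and *Dusp5* for *Fosl1*, *Trib1* and *H3f3b* for *Fosl2*, *Gm3776* and *Dusp8* for *Atf3*, *Mthfd2* and *Tnfrsf12a* for *Maff*, and *Phf7* and *Wrap53* for *Mafg*.

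Lists of related genes are given over both labels, beside the background of 14.0% of all genes called higher and 11.4% called lower. Fewer passed in WT livers alone, where 1.62% of all genes were called higher and 0.427% lower. There 3 of 10 integrated stress response genes, 3 of 19 AP-1 targets and 5 of 10 NRF2 targets rose. So did 4 of 8 phosphatase genes, 7 of 13 immediate early genes and 1 of 8 further AP-1 and Maf genes. Of 18 MAP kinases and regulators and 4 CNC partners, 0 were called in WT livers. Of 9 further AP-1 and Maf genes tested over both labels, 2 rose, 1 fell and the median log2 fold change was 0.36, against 0.01 over all genes, so the counts are near the background. *Mafk*, the remaining small Maf gene, rose from 12.3 to 16.5 CPM with vehicle to 43.2 to 64.9 CPM after APAP, 1.98 ± 0.12 on the log2 scale (SE; edgeR adjusted p = 6.08e-07). *Atf2*, which encodes a Jun partner and JNK substrate, rose by 0.36 ± 0.09 (adjusted p = 0.00919). Without WT APAP liver 2, 2 genes of this list were called lower. *Batf* had a log2 difference of 1.28 ± 0.82 (adjusted p = 0.280).

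Of 4 tested CNC partners of the small Maf proteins, 2 rose and 0 fell, with a median of 0.47. *Bach1*, which encodes a repressor of antioxidant genes, rose by 0.99 ± 0.15 on the log2 scale (SE; edgeR adjusted p = 0.000517) and *Nfe2l2*, the gene of NRF2, by 0.55 ± 0.09 (adjusted p = 0.000991). *Nfe2l1* was at -0.37 ± 0.16 (adjusted p = 0.109) and *Bach2* at 0.39 ± 0.22 (adjusted p = 0.206). Downstream of such dimers, 9 of 10 NRF2 target genes rose, with a median of 2.24. *Srxn1*, encoding sulfiredoxin, rose by 4.35 ± 0.20 (adjusted p = 8.42e-08), *Gclc*, encoding the catalytic subunit of the first enzyme of glutathione synthesis, by 3.09 ± 0.16 (adjusted p = 1.45e-07), *Gsta1* by 5.57 ± 0.47 (adjusted p = 7.53e-06) and the cystine carrier gene *Slc7a11* by 7.74 ± 0.70 (adjusted p = 1.2e-05), from at most 4 vehicle counts.

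Genes upstream of AP-1 split by kind. Among 18 MAP kinases and regulators of *Fos* and *Jun*, 5 rose and 4 fell, against 14.0% and 11.4% of all genes, and the median log2 fold change was 0.08. *Srf*, the factor that binds the *Fos* serum response element, rose by 1.46 ± 0.21 (SE; edgeR adjusted p = 0.000382) and *Mef2d*, a transcription factor that p38 and ERK5 act on, by 0.67 ± 0.13 (adjusted p = 0.0020). *Map2k6*, which encodes MKK6, a kinase that phosphorylates p38, fell by 3.02 (SE 0.41, adjusted p = 0.000281) and *Mapk3*, which encodes ERK1, by 0.47 (SE 0.08, adjusted p = 0.00169). All 8 MAP kinase phosphatase genes rose, with a median of 3.16, among them *Dusp4* (3.35 ± 0.18, adjusted p = 2.31e-07), *Dusp10* (2.97 ± 0.19, adjusted p = 9.58e-07), *Dusp5* (5.72 ± 0.43, adjusted p = 3.2e-06) and *Dusp1* (3.43 ± 0.30, adjusted p = 8.83e-06).

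Immediate early genes outside AP-1 rose with the members, 12 of 13 tested with 0 lower and a median log2 fold change of 3.53. *Egr1* went from 3.46 to 32.3 CPM with vehicle to 735 to 1882 CPM after APAP, a rise of 7.00 ± 0.61 (SE; edgeR adjusted p = 9.59e-06). *Klf6* rose by 4.65 ± 0.29 (adjusted p = 7.13e-07), *Ier5* by 3.49 ± 0.22 (adjusted p = 9.22e-07) and *Ier2* by 3.97 ± 0.33 (adjusted p = 7.18e-06).

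Of 10 integrated stress response genes, 9 rose and 0 fell, with a median log2 fold change of 1.36. *Ddit3*, encoding CHOP, rose by 4.94 ± 0.23 (SE; edgeR adjusted p = 8.42e-08) and *Ppp1r15a*, encoding the GADD34 subunit that restores translation, by 2.96 ± 0.21 (adjusted p = 1.87e-06). *Asns* rose by 1.73 ± 0.28 (adjusted p = 0.000835) and *Atf4*, the main transcription factor of this response, by 1.32 ± 0.24 (adjusted p = 0.00158).

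Of 20 tested genes known as AP-1 targets, 13 rose and 0 fell, with a median log2 fold change of 2.69. With at least 10 counts required in every liver only 12 could be tested and 6 rose. *Hmox1*, which encodes heme oxygenase and is also an NRF2 target, rose by 5.37 ± 0.43 (SE; edgeR adjusted p = 4.87e-06) and *Plaur*, encoding the urokinase receptor, by 3.22 ± 0.50 (adjusted p = 0.000647). *Areg*, which encodes the EGF receptor ligand amphiregulin, had 0 counts in all vehicle livers and 1.79 to 3.14 CPM after APAP (adjusted p = 8.83e-06). Of the list genes named as called over both labels, *Atf2*, *Bach1*, *Nfe2l2*, *Srf*, *Mef2d*, *Map2k6*, *Mapk3*, *Atf4* and *Plaur* did not pass in WT livers alone. Their edgeR adjusted p there ran from 0.0537 to 0.355. The lists were written with earlier results of these data known, and their counts are descriptions.

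Markers of other cell types moved with treatment in part. Summed neutrophil markers, 10 genes of which *Camp* had no count in any liver, ranged from 1.20 to 19.7 CPM in WT vehicle livers, 12.7 to 131 in WT APAP livers, 1.42 to 2.47 in vehicle livers labelled KO and 1.15 to 8.55 in APAP livers labelled KO, and 1 of 6 tested was called higher over both labels. In APAP livers 1, 2 and 3 labelled KO the neutrophil sums were 3.95, 1.15 and 8.55 CPM, with 3, 7 and 4 of the 10 markers at or under 3 counts. The same livers held *Jun* at 1127, 1464 and 1818 CPM, *Fos* at 22.3, 221 and 117 CPM and *Atf3* at 664, 571 and 566 CPM. Summed cholangiocyte markers, 5 genes, ranged from 12.0 to 26.3 CPM with vehicle and 27.5 to 75.0 CPM after APAP, with 2 of 5 called higher. *Spp1* is in this list and also in the list of AP-1 targets, so the sum is not separate from that list. Sums of Kupffer cell markers (129 to 269 and 116 to 271 CPM), monocyte markers (12.9 to 27.2 and 14.6 to 43.8 CPM), sinusoidal endothelial markers (165 to 216 and 154 to 272 CPM), stellate cell markers (160 to 300.5 and 186 to 391 CPM), T and B cell markers (0.943 to 3.82 and 1.16 to 6.04 CPM) and erythroid markers (333 to 749 and 253 to 17366 CPM) overlapped between vehicle and APAP. Of these lists, 0 of 9 Kupffer, 0 of 6 monocyte, 0 of 7 lymphocyte, 0 of 5 erythroid and 0 of 8 hepatocyte markers were called over both labels, 2 of 7 endothelial markers rose and 1 of 7 stellate markers fell. Within each label the stellate sums did not overlap and moved in opposite directions. They were 160 to 191 and then 194 to 391 CPM in WT livers, and 220 to 300.5 and then 186 to 192 CPM under the KO label. Under the KO label 3 of 7 stellate and 3 of 7 endothelial markers fell, against 9.6% of genes, and 1 endothelial marker rose, against 13%. In WT livers 0 of 7 stellate markers were called. The part of neutrophil and cholangiocyte markers in the changes of the AP-1 genes was not tested.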

How the data were processed

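Total counts of 45777 genes in 12 livers were used. The read counts, FPKM and TPM values were deposited by the authors: counts are whole numbers without normalization, FPKM was not used, and TPM served for levels between genes. Libraries were poly-A selected and stranded, and read as pairs. The submitters' processing notes name FastQC 0.11.7, Trimmomatic 0.38, HISAT2 2.1.0, Bowtie2 2.3.4.1, StringTie 2.1.3b and mm10 (GRCm38). The counting setting for strand is not given in the sources used here.

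Counts were scaled by TMM and tested with edgeR 4.0.16 (quasi-likelihood, filterByExpr, Benjamini-Hochberg over all genes, threshold 0.05) in R 4.3.3, on the 6 livers of a comparison, or on all 12 for both labels and the interaction. DESeq2 1.42.0, limma 3.58.1 on TPM (quantiles equalized, log2 with 1 or 0.1 added), other filters and left-out livers were alternatives. A floor of 3 counts per library gave lower bounds, and covers counting error only. Replicates are livers numbered in the labels. Members and lists were chosen with earlier results of these data known. Named genes are the 10 members, at most 4 genes of each list with the smallest p over both labels, the 3 genes most like each member with a mean log2 CPM of at least 1, and *Gna12*. Some genes that this rule names are not reported here. On simulated data with 200 genes changed 4-fold, 163 (81.5%) were recovered in the WT layout, with 14 false calls among 177, and 133 (66.5%) for the interaction, with 6 false calls among 139.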

Additional observations from a re-analysis of the deposited data

How the results depend on the processing

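The 9 rises over both labels and the 9 under the KO label held in every alternative that tested those genes, and 0 directions of a called gene reversed. With DESeq2's Wald test the number of genes lower under the KO label was 1 (*Mafg*) in place of 0, and the number higher in WT vehicle livers was 1 (*Jun*) in place of 0. Leaving out 1 liver at a time gave 2 to 8 rises in WT livers, 9 to 9 under the KO label and 9 to 9 over both labels, 0 to 1 falls under the KO label and 0 to 1 over both, and 0 to 0 calls for every other count. Without both WT vehicle liver 2 and WT APAP liver 1, an alternative chosen after seeing the data, 9 members rose in WT livers. Over all genes that fit called 435 higher and 196 lower of 15903. Of the members, an all-12 fit called 8 in WT livers, DESeq2 8 and limma 5 with a pseudocount of 1 or 7 with 0.1. Over all 15693 genes, limma called 169 and 232 higher with those pseudocounts. The number of all genes called in WT livers moved from 255 higher and 67 lower to 877 and 536 with DESeq2, 968 and 555 in the fit of all 12 livers, 42 and 1 without vehicle liver 1, 41 and 0 without vehicle liver 3, and 67 and 1 without APAP liver 3. DESeq2 called 21 higher and 8 lower in WT after APAP, 62 and 75 with vehicle, and 7 and 2 for the interaction, where edgeR called 2 and 3, 2 and 2, and 0. Under the KO label the fit of all 12 livers called 1405 higher and 844 lower in place of 2034 and 1504. Signs of values that were not called changed in 7 cases after APAP between labels, 5 with vehicle and 13 for the interaction.

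The replicate numbers do not pair the livers: correlations of same-numbered deviations ran from -0.264 to 0.0491. With the replicate number as a block, 5 genes rose in WT livers (*Fosl1* had an adjusted p of 0.0639), 61 genes rose and 1 fell over all genes tested there, and the other member counts did not change. Depth limits *Fosl1*, at 0 counts in every vehicle liver, and *Fosb*, at few.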
